A study of Mus musculus with 2 samples.

Results

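The regions described here are shore tiles, stretches of 2500 bases that lie directly beside a stretch of the same length with many measured CpGs. The 19 autosomes were cut into tiles of 2500 bases on a fixed grid, and the measured CpGs of each tile were counted. A CpG was counted when its listed position, called a start below, had a line with at least 5 methylation calls in both libraries. A tile was dense when it held 40 or more such shared starts, and a shore tile when it held 3 to 19 of them and touched a dense tile. The rule used positions and numbers of calls, not methylation. It found 4820 shore tiles among 158677 autosomal tiles with 3 or more shared starts, and they held 35648 of the 1667575 shared autosomal starts. The other 139390 tiles of 3 to 19 shared starts, which touch no dense tile, served for comparison. The dense tiles numbered 7241, of which 4022 touched a shore tile. The dense tile lay only at lower positions for 2392 shore tiles and only at higher positions for 2373, and 55 shore tiles lay between dense tiles.

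In mammalian genomes most CpGs are methylated, whereas CpG islands, short CpG-rich stretches that often hold promoters, mostly stay free of methylation. The flanks of an island are called its shores, where CpG density drops and methylation climbs from the low level of the island to the high level of the surrounding DNA. DNA methylation in ESCs is set by the de novo methyltransferases Dnmt3a and Dnmt3b and by the maintenance enzyme Dnmt1 with its partner Uhrf1, and Tet enzymes oxidize methylated cytosine.

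The study compared ESCs sorted by the pluripotency reporter *Rex1*, a gene expressed in naive ESCs and lower in cells that approach the primed state. Methylation was measured by RRBS, in which DNA is cut by MspI and TaqI and short fragments are bisulfite-sequenced, so that CpG-rich sequence is covered preferentially. There was 1 library of *Rex1*-high cells and 1 library of *Rex1*-low cells, sorted from the Rex1-dGFP knockin reporter line of E14 ESCs of 129/Ola background. Both populations came from cultures on gelatin with LIF and 10% serum, and differ in the labels only by the sorted *Rex1* level. They derive from a single cell line, the sorting gates were not given in the sources used here, and RNA was not measured in these libraries, so the sort was not checked against marker genes. The *Rex1*-high library held 60718476 calls, of which 1071621 were at shared starts of shore tiles, and the *Rex1*-low library held 61024229 calls, of which 1054521 were there. The median shore start had 28 calls in the *Rex1*-high and 23 in the *Rex1*-low library, and the median shore tile 163 and 144 calls. At this depth, 95% Wilson intervals of the summed calls of shore tiles reached 7.15 points (*Rex1*-high) and 6.21 points (*Rex1*-low) to either side in the median tile, for counting error alone. Because no state has a second library, replicate error is unknown, and each test compares these libraries, not the states.

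No annotation of mm9, the build of the listed positions, was used here. To see which dense tiles hold promoters, the spacing of CpGs in RefSeq promoter sequences (GRCm38.p6, 250 bases before to 50 after each transcription start site) was matched to the listed starts. Of 32841 promoters, 11377 had at least 15 CpGs, and 6583 of these matched a single place in the listed starts, 6582 of them on the chromosome that RefSeq gives. Of the 4820 shore tiles, 2373 (49.2%) lay beside a dense tile with a placed promoter (the dense tile nearest to most of its starts), and 53 promoters were placed in a shore tile itself. Below are the 250 bases before the start site of 4 genes whose shore tiles are described later, to show what the sequence beside a shore looks like. They are printed 5′ to 3′ on the coding strand, all 4 being the plus strand, with each CpG in capitals and with positions in mm9.

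Lifr (chr15:7079323-7079572): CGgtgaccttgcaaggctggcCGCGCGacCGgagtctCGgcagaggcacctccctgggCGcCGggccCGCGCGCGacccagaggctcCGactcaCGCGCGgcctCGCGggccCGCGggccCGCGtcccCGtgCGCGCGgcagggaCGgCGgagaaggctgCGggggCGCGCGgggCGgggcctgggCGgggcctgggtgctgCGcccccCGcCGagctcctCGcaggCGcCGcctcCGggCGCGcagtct
Dnmt3b (chr2:153474936-153475185): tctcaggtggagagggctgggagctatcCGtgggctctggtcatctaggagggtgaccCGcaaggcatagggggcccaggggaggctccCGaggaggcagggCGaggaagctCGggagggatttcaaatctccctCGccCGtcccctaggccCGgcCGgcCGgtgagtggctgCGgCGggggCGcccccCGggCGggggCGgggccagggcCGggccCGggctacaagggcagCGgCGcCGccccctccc
Sox2 (chr3:34548668-34548917): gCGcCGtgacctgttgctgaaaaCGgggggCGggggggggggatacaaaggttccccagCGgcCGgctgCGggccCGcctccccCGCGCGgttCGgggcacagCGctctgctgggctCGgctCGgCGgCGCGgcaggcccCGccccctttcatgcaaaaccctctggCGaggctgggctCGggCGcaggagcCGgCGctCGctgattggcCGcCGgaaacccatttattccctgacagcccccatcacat
Fgf5 (chr5:98682954-98683203): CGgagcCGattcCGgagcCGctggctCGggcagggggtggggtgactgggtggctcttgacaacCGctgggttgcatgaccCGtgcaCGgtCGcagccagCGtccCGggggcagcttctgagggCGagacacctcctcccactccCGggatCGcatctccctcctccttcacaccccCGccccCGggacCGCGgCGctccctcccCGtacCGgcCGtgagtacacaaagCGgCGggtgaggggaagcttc

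The stretch of *Lifr*, the LIF receptor, holds 43 CpGs, that of *Dnmt3b* 21, that of *Sox2*, a core pluripotency factor, 27, and that of *Fgf5*, an early gene of the primed state, 24. All 4 start sites lie in dense tiles, and the stretch of *Dnmt3b* begins in the shore tile before it crosses the tile border at 153475001. In the printed stretches of 250 bases, 24 shared starts of *Lifr* had median methylation levels of 0% in both libraries, and 15 of *Sox2* likewise had medians of 0% in both. The 19 shared starts of *Fgf5* had medians of 0% in the *Rex1*-high and 2.86% in the *Rex1*-low library, and only 4 were shared at *Dnmt3b*, with medians of 2.94% and 1.43%. The dense side of these shores was therefore mostly unmethylated in both libraries, with single starts up to 100% (*Dnmt3b*, *Rex1*-high) and 83.3% (*Fgf5*, *Rex1*-low). The 4 stretches hold 3, 6, 3 and 5 copies of CCGG, the sequence cut by MspI, in the order Lifr, Dnmt3b, Sox2 and Fgf5, and 0 of TCGA, cut by TaqI. Both motifs read the same on either strand. CCGG occurs in 47.1% and TCGA in 18.5% of the same 250-base stretches of all 32841 promoters.

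The shore tiles lay between the dense tiles and the rest of the genome in both libraries. Their median methylation level, the unweighted mean over the starts of a tile, was 44.3% in the *Rex1*-high library (quartiles 28.2% and 57.7%) and 69.4% in the *Rex1*-low library (quartiles 38.3% and 84.8%). The other tiles of 3 to 19 starts had medians of 59.3% and 86.6%, which is 14.9 points above the shore tiles in the *Rex1*-high and 17.3 points above them in the *Rex1*-low library. The dense tiles that touch a shore had medians of 12.5% and 14.0%. The median change of a shore tile from the *Rex1*-high to the *Rex1*-low library was 19.2 percentage points, against 24.7 points for the other tiles and 1.58 points for the dense tiles.

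Most shore tiles had more methylation in *Rex1*-low cells. Of the 4820, 4440 (92.1%) had a higher mean there. The calls of each tile were summed and compared by Fisher's exact test (two-sided, Benjamini-Hochberg adjustment over the 158677 tiles), and a tile was called if its adjusted p was below 0.05 and its mean differed by 10 points or more. This called 3035 shore tiles (63.0%) higher, against 75.7% of all tiles tested. The share of shore tiles is thus below that background, and also below the 82.6% of other tiles of 3 to 19 starts. Only 10 shore tiles (0.207%) were called lower, where 0.0315% of all tiles tested were. With the 10 points alone and no test, 70.0% of shore tiles were higher and 0.851% lower, against 82.6% and 0.244% of all tiles tested.

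The spread among shore tiles was wide. In both libraries under 20% lay 417 of them (8.65%), against 1.06% of the other tiles. Another 1846 shore tiles (38.3%) went from under 60% in the *Rex1*-high to 60% or more in the *Rex1*-low library, and 20% were at 60% or more in both, where 47.7% of the other tiles were. The *Rex1*-low library therefore split the shore tiles into a large group near the level of the genome at large and a broad shelf of low tiles, seen in the plot of tile levels.

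**Figure D1:**
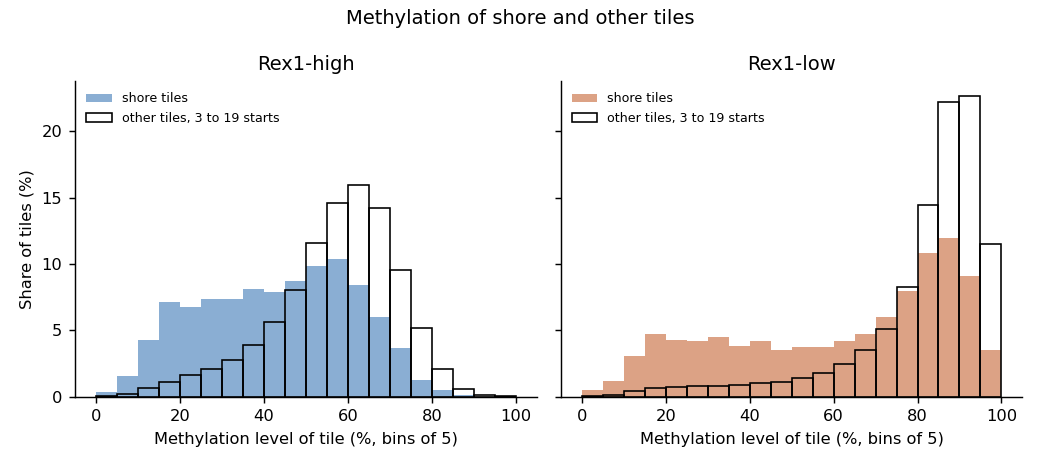
Share of tiles (y axis, %) by methylation level in bins of 5 percentage points (x axis), for the Rex1-high library on the left and the Rex1-low library on the right. Filled bars are the 4820 shore tiles and open bars the 139390 other tiles of 3 to 19 shared starts. The shore tiles spread over low levels in both libraries, with medians of 44.3% and 69.4%, where the other tiles have medians of 59.3% and 86.6%.

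Shore tiles hold more starts than the other tiles, with a median of 6 against 4, and tiles with many starts are less methylated in both sets. The sets were therefore compared at like numbers of starts. Among tiles of 3 to 4 starts, 1716 shore tiles had medians of 53.1% and 80%, against 61.7% and 88.5% for the other tiles, and their median changes were 22.7 and 24.7 points. Among tiles of 5 to 9 starts, 1813 shore tiles had medians of 45.5% and 71.6%, against 58.3% and 85.8%, with changes of 20.97 and 25.1 points. The gap was widest among tiles of 10 to 19 starts. There, 1291 shore tiles had medians of 27.4% and 37.1% and a median change of 9.25 points, against 48.98%, 77.9% and 23.6 points for the other tiles, and 45.1% of them were called higher, against 79.3%.

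The tiles just inside and just outside the rule were alike. Shore tiles of 18 to 19 starts had medians of 20.5% and 27.1% (179 tiles), and tiles of 20 to 21 starts beside a dense tile had 22.2% and 27.8% (138 tiles). Shore tiles whose densest neighbour had 40 to 43 starts had medians of 46.9% and 71.5% (575 tiles), and tiles whose densest neighbour had 36 to 39 starts had 45.4% and 71.8% (701 tiles). Beside denser neighbours the shores were lower. With 40 to 59 starts in the neighbour the medians were 46.1% and 71.9%, and with 120 or more they were 38.9% and 61.2%, with a change of 19.8 points in the former and 16.4 points in the latter.

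Distance from the dense tile separated the shore CpGs far more than membership did. The 8195 shared starts less than 250 bases from the nearest start of the dense tile had median levels of 2.17% in the *Rex1*-high and 3.57% in the *Rex1*-low library, and a median change of 0 points. At 250 to 499 bases the medians were 12.7% and 24.3%, and at 500 to 999 bases 45.3% and 60.0%, with a median change of 12.3 points. From 1000 bases on the levels changed little, with medians of 52.3% and 77.3% at 1000 to 1499 bases and of 53.4% and 80.9% at 2000 to 2499 bases. The median change there was 21.4 and 23.0 points. Starts of the other tiles had medians of 58.5% and 86.9% and a median change of 23.5 points, and starts of the dense tiles beside the shores 0% and 0.556%. The farthest shore starts thus came close to the rest of the genome in change and remained some points below it in level.

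**Figure D2:**
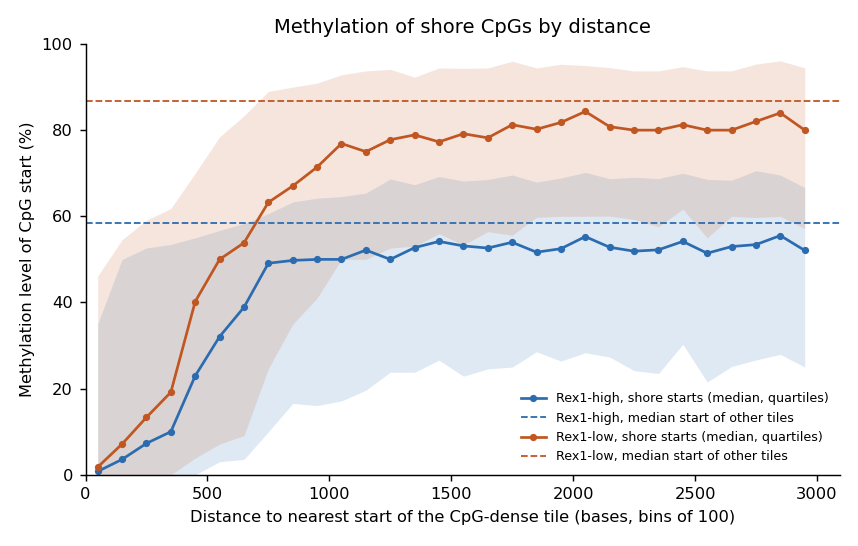
Methylation level of shore CpG starts (y axis, %) by distance to the nearest start of the dense tile (x axis, bases, in bins of 100), as medians (points) with quartiles (bands) for the Rex1-high (blue) and Rex1-low (orange) libraries. Dashed lines are the medians over starts of the other tiles, 58.5% and 86.9%. Both libraries start near 0% beside the dense tile and flatten from about 1000 bases on, the Rex1-low library at a higher level.

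The ramp was steeper in the *Rex1*-low library. In bins of 100 bases, the median start passed 20% in the *Rex1*-high library between 400 and 499 bases, at 23.0%, where it was already 40.2% in the *Rex1*-low library. Between 700 and 799 bases the *Rex1*-high median was 49.1%, close to the 53.4% seen at 2000 to 2499 bases. The *Rex1*-high mean still rose between these distances, from 39.9% to 48.7%. The *Rex1*-low median was 63.2% between 700 and 799 bases and rose further to 76.9% between 1000 and 1099 bases. Starts at 20% or less in both libraries made up 62.7% of those under 250 bases, 24.5% of those at 500 to 999 bases and 9.30% of those at 2000 to 2499 bases, against 6.90% of the starts of other tiles. Starts at 80% or more in the *Rex1*-low library went the opposite way, from 8.36% to 32.5% and 53.5%, whereas in the *Rex1*-high library they reached only 11.6% at 2000 to 2499 bases.

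Tiles sorted by the median distance of their starts gave the same order. The 1319 shore tiles with a median distance under 500 bases had medians of 24.1% and 29.5%, and 339 of them (25.7%) were called higher in the *Rex1*-low library. The 719 tiles at 500 to 999 bases had medians of 41.4% and 60.9%, with 59.5% called higher. The 2782 tiles at 1000 bases or more had medians of 52.6% and 80.6% and a median change of 24.1 points, and 81.5% of them were called higher. Of all tiles tested 75.7% were called higher and of the other tiles 82.6%, so that the farthest class was near these shares and the nearest one far below them. Of the 417 shore tiles under 20% in both libraries, 356 had a median distance under 500 bases. Across the 4820 tiles, Spearman's rho with the median distance was 0.526 for the *Rex1*-high level, 0.578 for the *Rex1*-low level and 0.485 for the change. These are descriptions, since the tiles share 2 libraries and the number of starts also fell with distance (rho of -0.226).

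The ramp was also present within single tiles. In the 1050 shore tiles with at least 6 starts spanning at least 1000 bases, the 3 starts nearest to the dense tile were compared with the 3 farthest. The nearest had medians of 37.6% and 55.2%, and the farthest 52.6% and 80.2%. The farthest were higher in 70.2% of the tiles in the *Rex1*-high and in 72.7% in the *Rex1*-low library. Where the nearest start was within 250 bases (455 tiles), the medians were 22.4% and 28.0% near the dense tile and 53.0% and 80.2% at the far end, and the median change was 4.78 points near and 22.7 points far. Where it was at 1000 bases or more (283 tiles), the near and far ends were alike, with medians of 52.6% and 79.6% near and 52.2% and 80.1% far.

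Local CpG density differs along the ramp, because starts close to the dense tile have more neighbours. Starts with 5 or more other shared starts within 100 bases had medians of 0% and 1.59% under 250 bases and of 30.6% and 65.1% at 2000 to 2499 bases. Such starts in the other tiles had medians of 38.7% and 71.4%. Starts with 0 to 1 neighbours went from 52.0% and 60.8% to 64.3% and 90.9% over the same distances, against 68.2% and 93.3% in the other tiles. The *Rex1*-low level thus climbed with distance at high and at low local density, while the *Rex1*-high level of isolated starts climbed by less. The change of isolated starts was 7.96 points under 250 bases and 21.4 points at 2000 to 2499 bases.

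Starts of like *Rex1*-high level were also compared. Among starts at 40 to 60% in the *Rex1*-high library, with at least 20 calls in each library and without starts at which one line was at 80% or more and the other at 20% or less, the mean change was 11.9 points under 250 bases (487 starts). It was 14.9 points at 250 to 499 bases, 21.8 at 500 to 999 bases and 30.1 at 2000 to 2499 bases (363 starts). The other tiles gave 31.2 points over 56823 such starts. The *Rex1*-high level that chose these starts is also a term of the change, and starts under 250 bases had a median of 2.17% there, against 53.4% at 2000 to 2499 bases. How much of the difference by distance comes from this choice was not tested.

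**Figure D3:**
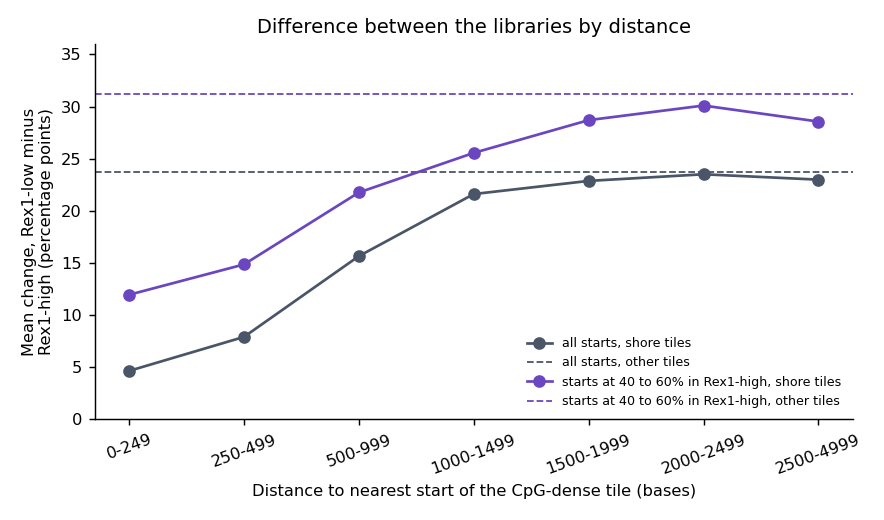
Mean change in methylation level, Rex1-low minus Rex1-high (y axis, percentage points), by distance to the nearest start of the dense tile (x axis, bases). Grey points are all shore starts. Purple points are those at 40 to 60% in the Rex1-high library with 20 or more calls in each library, without starts whose lines disagree. Dashed lines are the same means over the other tiles, 23.7 and 31.2 points. Both lines climb with distance up to 2000 to 2499 bases, from 4.65 to 23.5 points for all starts.

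A start has 1 or 2 lines in the deposited data, and at some starts they disagree, with one line at 80% or more and the other at 20% or less in the same library. No strand is named for them. Such starts made up 12.5% of all shore starts in the *Rex1*-high and 6.48% in the *Rex1*-low library. By distance they made up 11.7% and 8.80% under 250 bases, 18.8% and 11.2% at 250 to 499 bases, and 9.04% and 3.92% at 2000 to 2499 bases. The shares were 6.35% and 2.07% in the other tiles and 8.09% and 6.78% in the dense tiles next to a shore. Over all distances, the shores were thus above the other tiles in both libraries but above the dense tiles only in the *Rex1*-high library. Under 1000 bases the *Rex1*-low shares of the shores were also above the dense tiles, with 8.26% at 500 to 999 bases. Farther out they were below them. Leaving out every start that disagreed in either library lowered the medians at 250 to 499 bases from 12.7% to 3.85% (*Rex1*-high) and from 24.3% to 10% (*Rex1*-low). At 500 to 999 bases the *Rex1*-high median fell from 45.3% to 27.8% and the *Rex1*-low median was 60% with and without them. Without them the *Rex1*-high median thus still climbed beyond 1000 bases, to 48.6% at 1000 to 1499 bases, where it was 52.3% with them. Under 250 bases the medians became 0% and 1.67%. The mean change under 250 bases was 4.60 points without them and 4.65 points with them. What produces the disagreement was not tested.

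The level of the dense tile itself was low beside most shores. It was under 20% in both libraries for 4093 shore tiles, whose own medians were 43.4% and 68.1%, with a median change of 18.8 points. Only 50 shore tiles lay beside a dense tile at 50% or more in the *Rex1*-low library. Those 38 dense tiles had medians of 37.5% and 64.5%, and the 50 shore tiles had 57.1% and 84.0%, with a change of 26.9 points and 94.0% called higher, beside 75.7% of all tiles tested. Beside these methylated dense tiles the shore was methylated from its first bases, with medians of 50.6% and 84.5% at the 84 starts under 250 bases and of 66.7% and 90.0% at the 69 starts at 2000 to 2499 bases. Over all 4820 tiles the change of the shore and that of its dense tile had a Spearman's rho of 0.080.

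The levels of the shores on either side of one dense tile showed little correlation. Of the 802 dense tiles that had a shore tile of their own on each side, the *Rex1*-low levels of the pair had a Spearman's rho of -0.055 and a median absolute difference of 23.2 points. In the *Rex1*-low library both shores were at 60% or more for 320 dense tiles and both under 20% for 5. One was under 20% with the other at 60% or more for 93. The shores of a pair were not matched for distance from the dense tile. Across all 4820 shore tiles, the *Rex1*-low level had a Spearman's rho of 0.578 with the median distance of the starts. Whether paired shores are alike at like distance was not tested.

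One tile further out, most of the difference from the rest of the genome was gone. Tiles of 3 to 19 starts at 2 tiles from the nearest dense tile (3596 tiles) had medians of 54.5% and 82.4% and a median change of 24.9 points. At 3 tiles the medians were 55.5% and 83.6%, and at 12 tiles or more 60.0% and 87.1%, with changes of 24.9 and 24.7 points. The change was thus at its distant value from the second tile on, while the levels went on rising by a few points. The reduced change was seen on every autosome. Over the 19 chromosomes the median change of shore tiles ran from 15.1 to 21.7 points and differed from that of the other tiles of the same chromosome by -9.74 to -2.31 points, and the median change of starts under 250 bases ran from 0 to 0.783 points.

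With promoters placed, shores could be sorted by side. The 962 shore tiles upstream of a placed promoter had medians of 45.2% and 67.6% and a median change of 18.03 points, with 60.7% called higher. The 1035 downstream ones, on the side of the transcribed gene, had medians of 42.7% and 70.1% and a change of 20.7 points, with 65.3% called higher, where 75.7% of all tiles tested were. The 2447 shore tiles beside a dense tile with no placed promoter had 45.1%, 70.3% and 18.8 points. Downstream shores thus showed somewhat the larger change, and the same held at 2000 to 2499 bases from the dense tile, where starts had a mean change of 25.7 points downstream and 22.2 points upstream. Under 250 bases the means were 3.98 points downstream and 4.15 points upstream. The difference between the sides was not tested, since tiles are not replicates.

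Around the start site itself, methylation was near 0% in both libraries. For 1515 start sites in dense tiles with a single placed start site, all shared starts within 5000 bases were placed by their distance from it. The median was 0% in both libraries from 500 bases upstream to 500 bases downstream. It was 7.78% in the *Rex1*-high and 13.3% in the *Rex1*-low library at -1250 to -1001 bases from the start site, and 48.6% and 60.1% at -2000 to -1751 bases. Downstream the climb began later, with 3.12% and 6.25% at 1000 to 1249 bases, and reached 40.3% and 65.5% at 2000 to 2249 bases. Farther upstream the medians were 44.7% and 70.6% at -4000 to -3751 bases, 24.6% and 49.1% at -4750 to -4501 bases, the lowest beyond -2000 bases, and 39.4% and 58.7% at -5000 to -4751 bases.

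**Figure D4:**
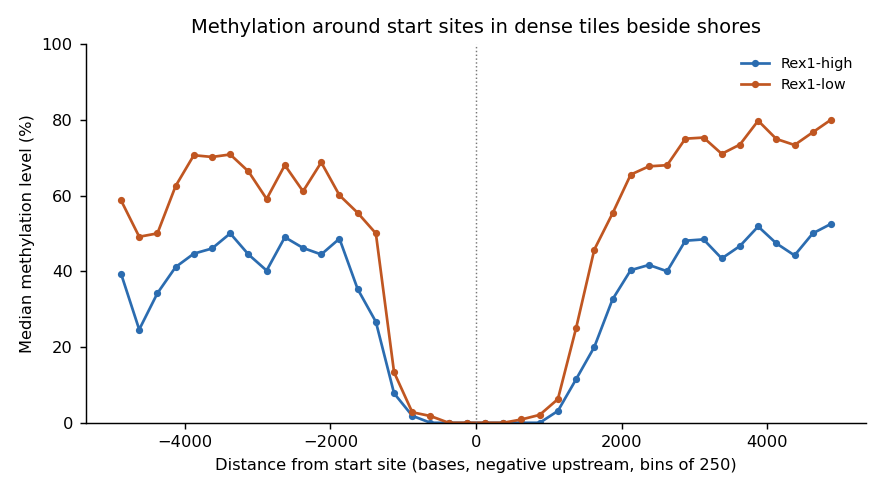
Median methylation level of shared CpG starts (y axis, %) by distance from the transcription start site (x axis, bases, negative upstream, bins of 250), over 1515 start sites placed in dense tiles beside a shore, for the Rex1-high (blue) and Rex1-low (orange) libraries. Both medians are 0% within 500 bases of the start site and climb on both sides, the Rex1-low library to the higher level. Beyond 4000 bases upstream both medians dip to 24.6% and 49.1% at -4750 to -4501 bases and are at 39.4% and 58.7% in the last bin.

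Individual shore tiles covered this whole range. Among the 1285 shore tiles with at least 10 starts and at least 100 calls in each library, 580 (45.1%) were called higher, 0 lower, and 132 had a lower mean in the *Rex1*-low library. Of all tiles tested, 75.7% were called higher and 0.0315% lower, so that the share called higher is below the background and nothing is read from the 0. The largest increase was at chr17:88037501-88040000, whose 10 starts lie 3187 to 3324 bases from the dense tile. It went from 36.7% (150 of 459 calls, Wilson interval of the calls 28.5% to 37.1%) to 87.6% (201 of 232 calls, 81.7% to 90.4%), a change of 50.9 points with an adjusted p of 3.61e-41 in Fisher's exact test. Its starts were at 13.6% to 65.6% (*Rex1*-high) and at 75.7% to 100% (*Rex1*-low), so the ranges did not overlap. The dense tile beside it went from 13.6% to 14.9%.

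The next 4 increases were of 42.6 to 50.7 points. A tile on chromosome 18 went from 34.2% to 84.8%, and chr11:4120001-4122500 from 29.1% to 76.8%. The tile chr2:12342501-12345000 went from 34.9% to 80.5%, and chr17:36030001-36032500 from 37.7% to 80.2%. The change on chromosome 11 was 47.6 points and fell to 31.2 with at least 10 calls per line, and that of the last tile was 42.6 points and fell to 27.7 with at least 1 call per line, and all these values were called. All starts were higher in the *Rex1*-low library in 3 of these 4 tiles, and 14 of 15 were in the tile on chromosome 11. The dense tiles of these 5 shores changed by 0.903 to 3.85 points, and none had a placed promoter.

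The largest decreases were smaller and were not called. The tile chr10:6080001-6082500, whose nearest start is 7 bases from the dense tile, went from 18.3% to 7.84% (82 of 443 and 68 of 497 calls, Fisher's exact test, adjusted p of 0.0603). The tile chr5:65195001-65197500, downstream of the promoter of *Klf3*, a Kruppel-like transcription factor, went from 20.8% to 10.7%, with an adjusted p of 0.590 in Fisher's exact test. By a Cochran-Mantel-Haenszel test stratified by start, both tiles were called lower, with adjusted p of 0.0469 and 0.0122. The change of the *Klf3* shore was however 0.352 points with at least 10 calls per line and 2.87 points without starts whose lines disagree, while that on chromosome 10 was -3.54 and -4.94 points. At the 13 starts of the *Klf3* shore, 5 were lower, 2 were higher and 3 had lines that disagreed. The other decreases, on chromosomes 9, 4 and 8, gave changes of -8.24, -7.76 and -7.62 points. Their direction was not stable either, since pooled calls gave 0.548 points on chromosome 9 and 1.45 points on chromosome 4, and at least 10 calls per line gave 3.29 points on chromosome 9 and 7.78 points on chromosome 8.

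The lowest shore tiles lay hard against the dense tile. At chr4:104037501-104040000, upstream of *Dab1*, an adaptor of reelin signalling, 18 starts lie within 128 bases of the dense tile and had a mean of 3.57% in the *Rex1*-high and 3.39% in the *Rex1*-low library. At chr12:114250001-114252500, upstream of *Pacs2*, the means were 3.90% and 4.18%, and at chr1:87687501-87690000, upstream of *Cab39*, 4.82% and 4.85%. In each of the 5 lowest tiles the median start was at 0% in both libraries, and the farthest start was within 157 bases of the dense tile.

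The calls of lower methylation were few, and their number moved with the processing. Of the 10 shore tiles called lower, 5 were also called by the Cochran-Mantel-Haenszel test, and over all shore tiles 1 was called lower without starts whose lines disagree, 3 with lines summed first and 2 at equal depth. The number rose to 14 by the Cochran-Mantel-Haenszel test, 22 with the median over starts, 25 with at least 1 call per line and 28 in tiles of 1000 bases. The 10 tiles had 3 to 9 starts each, and 8 of them had a start within 250 bases of the dense tile, as had 30.5% of all shore tiles. They lay beside the placed promoters of *Stk35*, *Bcl2l1* (an anti-apoptotic Bcl2 relative), *Mtss2*, *Bptf* (a subunit of the NURF chromatin remodeller) and *Lhfpl2*, and 5 had no placed promoter. The largest was at chr11:64250001-64252500, from 26.9% to 6.06% over 3 starts (20 of 77 and 2 of 34 calls, adjusted p of 0.0242 in Fisher's exact test). In 2 of the 10, at *Stk35* and *Mtss2*, the summed calls went up while the mean over starts went down, so their direction depends on how starts are weighted. None of the 3035 tiles called higher had summed calls that went down.

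Shores beside promoters of known genes were then read from 5 gene lists. Of 18 genes for DNA methylation and demethylation, 9 had a placed promoter and 4 had a shore tile, of which 3 were called higher, where 63.0% of all shore tiles and 75.7% of all tiles tested were. The shore of *Dnmt3b*, upstream at chr2:153472501-153475000, rose from 43.3% to 68.2% (52 of 115 and 80 of 124 calls, adjusted p of 0.00441 in Fisher's exact test). Its 3 starts went from 55.6%, 11.8% and 62.5% to 57.7%, 46.8% and 100%, and lie 1370 to 1442 bases from the dense tile. The start at 1370 bases had lines that disagreed. Without it fewer than 3 starts remain, so the tile could not be tested without such starts. With the median over starts in place of the mean, the changes at *Dnmt3b* and *Uhrf1* were 2.14 and 2.29 points, and neither was called. The shore of *Uhrf1* rose from 55.7% to 77.1% and that of *Hells*, a chromatin remodeller needed for DNA methylation, from 23.7% to 35.3%. At *Uhrf1* the starts at 2199 and 2304 bases reached 100%, while the 3 starts at 339 to 388 bases ended at 59.8% to 65.6%. With at least 10 calls per line the change at *Uhrf1* was 3.21 points. With at least 1 call per line that at *Hells* was 9.48 points, and neither was called. The change of 11.6 points at *Hells* was 25.9 points with pooled calls and 18.3 points with at least 10 calls per line. *Kdm2b* encodes a histone demethylase that binds unmethylated CpG islands. Its shore was at 56.6% and 56.8%, with an adjusted p of 0.281 in Fisher's exact test. Its summed calls went from 53 of 84 to 39 of 73 (-9.67 points with pooled calls), and its change was 10.8 points without starts whose lines disagree, neither of them called, so its direction depends on the processing.

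Among 25 naive pluripotency and ESC regulators, 10 had a placed promoter and 3 a shore tile, of which 1 was called higher (63.0% of all shore tiles and 75.7% of all tiles tested). That was the shore of *Lifr* at chr15:7075001-7077500, which rose from 58.3% to 95% (22 of 40 and 32 of 34 calls, Wilson intervals 39.8% to 69.3% and 80.9% to 98.4%), with an adjusted p of 0.000316 in Fisher's exact test. Its 4 starts lie 2091 to 2189 bases from the dense tile whose promoter sequence, printed above, was at a median of 0%. The shore of *Sox2* at chr3:34550001-34552500 begins 5 bases from its dense tile and was at 21.2% and 24.2% (131 of 539 and 162 of 612 calls), with an adjusted p of 0.444 in Fisher's exact test. Its change of 2.99 points was 15.3 points with at least 10 calls per line, 8.79 points at equal depth (adjusted p of 0.0202 in Fisher's exact test) and -0.281 points with at least 1 call per line. The Cochran-Mantel-Haenszel test gave an adjusted p of 0.000136, and no setting brought both the p and the change past the thresholds. Of its 17 starts, 7 were at 0% in both libraries, all within 246 bases. *Tcf7l1*, a repressor at pluripotency genes, had a shore at 30.5% and 45.3%, with an adjusted p of 0.155 in Fisher's exact test and of 0.0196 by the Cochran-Mantel-Haenszel test. By the latter test this shore was called higher. Its change of 14.8 points was 3.63 points with at least 1 call per line, 7.01 points with lines summed first and 9.17 points with pooled calls.

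Of 24 regulators of the primed state and early lineages, 6 had a placed promoter, and 5 of these had 7 shore tiles, of which 1 was called higher, beside the same 63.0% and 75.7%. The shore of *Wnt3*, a ligand needed for gastrulation, rose from 64.8% to 95.1% (71 of 111 and 122 of 133 calls, adjusted p of 4.06e-07 in Fisher's exact test), at 3 starts 1814 to 1868 bases away. The shore of *Fgf5* at chr5:98685001-98687500 was at 35.7% and 31.1% (53 of 164 and 66 of 187 calls, adjusted p of 0.600 in Fisher's exact test). Its 6 starts lie 1179 to 1370 bases from the dense tile, and 2 of them had lines that disagreed. The summed calls rose while the mean over starts fell, and neither difference was called. With at least 10 calls per line the tile was called lower (-14.6 points), whereas its change was between 0.111 and 3.75 points upward with at least 1 call per line, with pooled calls, with the median over starts, without starts whose lines disagree or with lines summed first, so its direction depends on the processing. Shores of *Pax6*, a neural and eye regulator, were at 20.3% and 28.8% and at 38.5% and 45.0%. Their adjusted p values by Fisher's exact test were 0.00551 and 0.00250, but the changes of 8.52 and 6.45 points were under the 10 points required, which they passed when at least 1 call per line was kept (16.6 points) or at least 10 (12.4 points), respectively. The former also passed at equal depth (10.1 points) and the latter with pooled calls (14.7 points). Those of *Nes*, the neural filament gene, were at 24.98% and 25.1% and at 42.5% and 44.9%. The change of 0.148 points in the former was -3.02 points with at least 1 call per line and 4.64 points with lines summed first. That of 2.45 points in the latter was 13.0 points with at least 10 calls per line and 9.34 points with at least 1. None of these values was called. At *Lhx1* the mean was 22.6% and 15.9% while the summed calls went from 32 of 201 to 50 of 208, and its adjusted p was 0.0584 by Fisher's exact test.

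Of 18 housekeeping genes, 5 had a placed promoter, and 4 of these had 5 shore tiles, of which 4 were called higher, beside 63.0% of all shore tiles and 75.7% of all tiles tested. The shore of *Polr2a*, the largest subunit of RNA polymerase II, rose from 20.9% to 36.1% (110 of 303 and 374 of 568 calls, adjusted p of 2.03e-15 in Fisher's exact test). Its 5 starts at 1927 to 1993 bases went from 12.3% to 75% up to 64.4% to 98.6%, whereas 7 of the 10 starts within 500 bases were at or under 20% in the *Rex1*-high library and at 0% in the *Rex1*-low library. Its change of 15.3 points was 29.5 points with pooled calls and 30.8 points with at least 10 calls per line, both called. Taken as the median over starts, the change was 3.85 points, and the shore was not called. *Rplp0*, a ribosomal protein gene, had both kinds of shore. On one side 3 starts at 2787 to 2882 bases rose from 65.4% to 90.0%, and on the other 3 starts 67 to 104 bases away were at 0% in both, with 0 of 60 and 0 of 17 calls (Wilson upper bounds 6.02% and 18.4%). Shores of *Eef2* and *Ppia* rose from 44.8% to 64.8% and from 58.2% to 75.3%. Of 16 germline genes, 7 had a placed promoter and 0 of them had a shore tile.

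**Figure D5:**
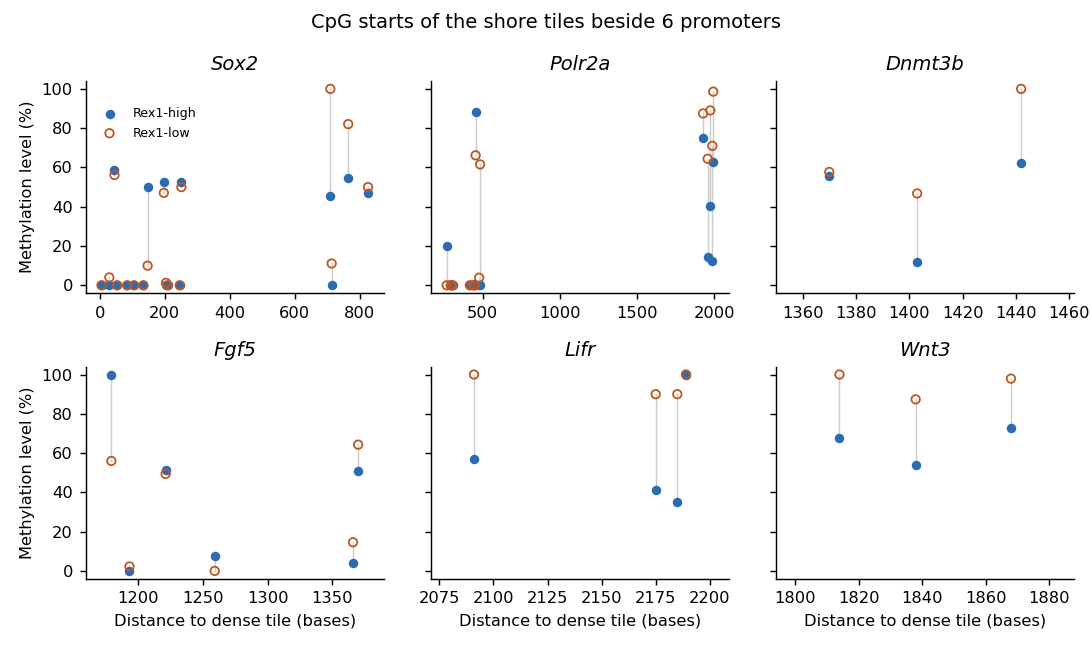
Methylation level (y axis, %) of single CpG starts by distance to the nearest start of the dense tile (x axis, bases, a scale of its own in each panel) in the shore tiles beside 6 promoters. Filled blue points are the Rex1-high and open orange points the Rex1-low library, joined for each start. Starts near the dense tile at Sox2 and Polr2a are mostly at or near 0% in both libraries, and those of Lifr and Wnt3, at least 1814 bases out, are at 87.4% or more in the Rex1-low library.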

How the data were processed

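RRBS was done on 1 library of sorted *Rex1*-high and 1 of sorted *Rex1*-low ESCs. Per the submitters' processing notes, reads were processed with Bismark 0.7 on mm9, and the methods add Galaxy. The authors deposited, for each line, methylated calls and all calls as raw counts, and a score of 1000 times their ratio, which was not used. Lines with 1 call are listed, so the minimum of 5 calls per line was applied here, the fractions of the 1 or 2 lines at a start were averaged, and starts kept in both libraries were used. There were 0 further columns of samples. The level of a tile is the unweighted mean over its starts. Calls were summed over each tile of 3 or more starts and compared by Fisher's exact test (two-sided), with p-values adjusted by Benjamini-Hochberg. A tile was called if the adjusted p was below 0.05 and the means differed by 10 points or more. The test covers counting error only, and calls on one read or from PCR copies are not independent. The test was also run on simulated data, in which calls were drawn independently, so that run cannot show the effect of such dependence.

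The shore tiles, the gene lists and the tests were chosen with earlier results of these data known. Among the tiles described singly are the 5 with the largest increase, the 5 with the largest decrease and the 5 with the lowest level among shore tiles with at least 10 starts and at least 100 calls in each library. Genes were those of 5 lists with a promoter placed in a dense tile. A promoter was placed when at least 15 listed starts fell on its CpGs at a single place on the chromosome that RefSeq names, and no coordinates were converted between builds. Where a shore tile lay between dense tiles, distance was taken to the nearer one. The tiles called lower were named after their values were seen. Alternatives varied the call minimum, the merging of lines, the averaging, the thresholds, the tiles, the depth and the test. The software was Python 3.11.15 with SciPy 1.17.1, numba 0.67.0, NumPy 2.4.6, matplotlib 3.10.9 and pandas 2.3.3.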

Additional observations from a re-analysis of the deposited data

How the results depend on the processing

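Each of 15 summary results was recomputed under the alternatives that bear on it, 23 in all, 2 of them added after seeing the data. Among 215 values, 160 stayed within the limits and 55 moved, and 0 reversed. A value counted as moved when it shifted by more than the median half-width of a shore tile's interval (7.15 points for *Rex1*-high, 6.21 for *Rex1*-low levels, 9.47 for changes), left the 95% Wilson interval of a share, or, for a number of tiles, differed by more than 1.5 times. The limit for changes is wide beside small results. The change of shore tiles differed from that of the other tiles by -5.53 points, and -14.3 points with 10 to 19 starts counted as within the limit. The mean change under 250 bases was 4.65 points. For such results, staying within the limit does not show that the size is stable.

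With 5 to 19 starts there were 3104 shore tiles, with a *Rex1*-low median of 57.0%, 27.5 points below the other tiles (-27.5), 59.2% called higher and 5 lower. With 10 to 19 starts there were 1291, with medians of 27.4% and 37.1%, a change of 9.25 points (-14.3 from the other tiles), or 7.85 beside dense tiles under 20% in both, a *Rex1*-low difference of -40.8 points from the other tiles, 45.1% called higher and 0 lower. Compared in their own strata, the *Rex1*-low difference was -8.52 points at 3 to 4 starts and -40.8 at 10 to 19, and that in the change -1.93 and -14.3 points. With dense tiles of 60 or more starts there were 2445 shore tiles, 5 called lower. Tiles of 1000 bases gave medians of 32.5% and 42.6%, differences of -26.3 and -44.0 points from the other tiles, a median change of 10.6 points (-14.6 from the other tiles), or 9.05 beside dense tiles under 20%, and 41.1% called higher against 71.9% of all tiles, with 28 lower. Their starts cannot lie 2000 bases away, so that distance was not given. A grid shifted by 1250 bases gave 61.2% called higher.

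With at least 10 calls per line there were 3032 shore tiles, a *Rex1*-low median of 62.9%, a difference of -24.8 points, 60.2% called higher and 5 lower. The share of shore tiles called higher, beside that of all tiles, was 53.8% and 61.4% with at least 1 call per line (25 shore tiles lower), 66.7% and 77.6% from pooled calls, 60.5% and 73.9% with the median over starts (22 lower), 60.2% and 75.1% without starts whose lines disagree (1 lower), 66.9% and 78.2% by the Cochran-Mantel-Haenszel test, 46.4% and 59.8% at 20 points (1 lower), 70.0% and 82.6% at 10 points with no test (41 lower), and 61.5% and 70.4% after thinning to equal depth (2 lower). With lines summed first, 64.2% and 75.4% were called higher and 3 shore tiles lower. In each of these alternatives the share of shore tiles was below that of all tiles.

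For 34 individual and gene tiles, 402 values gave 0 reversals of a called tile, with 7 calls lost and 8 gained, and 32 values changed sign where no call was made. Besides the values above in the report, *Polr2a* was at 9.64 points with at least 1 call per line, and *Hells* at 8.34 points without starts whose lines disagree. No paired analysis was possible because each state has 1 library and the labels carry no replicate numbers, and for the same reason no library could be left out.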

Other observations

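Chromosome X, left out of the shore tiles above, held 62 tiles that met the same rule. Their median levels were 41.5% in the *Rex1*-high and 61.8% in the *Rex1*-low library, with a median change of 17.9 points, and 58 of the 62 were higher in the *Rex1*-low library. The 3532 other X tiles of 3 to 19 starts had medians of 56.9% and 85.3% and a change of 24.7 points. Starts of X shores less than 500 bases from the dense tile had medians of 2.57% and 3.85% (182 starts), those at 500 to 999 bases 28.2% and 47.0% (72 starts), and those at 1000 bases or more 54.4% and 81.8% (177 starts). The X tiles were covered by fewer calls, with a median of 141 per shore tile in the *Rex1*-high and 95.5 in the *Rex1*-low library.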
